A study of Homo sapiens with 9 samples.

Results

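The Delta-HER2 line of MCF10A cells was compared with the WT-HER2 line, using 6 of the 9 arrays of the study (3 arrays per line) and 18404 genes. MCF10A is an established, non-tumorigenic human mammary epithelial cell line of basal character. Members were the arrays titled deltaHer2 and HER2wt, and each gene was represented by the transcript cluster, the probe set of the array for a locus, with the highest mean over all 9 arrays. The 3 control arrays, from cells called parental in the sample labels and empty-vector cells in the design text, contributed to the shared estimate of spread and are quoted as reference levels. All groups were grown with 5% horse serum, 20 ng/ml epidermal growth factor (EGF), hydrocortisone, cholera toxin and insulin, and then spent 16 hours without serum before RNA extraction, in medium whose only named supplement was antibiotics.

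HER2, the product of ERBB2, is a receptor tyrosine kinase of the EGF receptor family that has no known soluble ligand and signals by pairing with EGFR, with ERBB3 or with itself. Its main outputs are the RAS and ERK cascade, which drives growth and cell division, and the PI3-kinase and AKT cascade, which supports growth and survival and keeps FOXO transcription factors out of the nucleus. Delta-HER2 is a natural splice variant that lacks a short extracellular stretch next to the membrane. This leaves a cysteine unpaired, and the variant forms disulfide-linked dimers that are active without ligand. The comparison asks how the expression program of cells with the variant differs from that of cells with the full-length receptor.

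Each receptor is represented by a single line. The labels do not say whether a line is a clone or a pool, which vector or promoter drives the receptor, or whether the replicates were separate cultures, so p-values measure the spread between these samples. The variant, the level of the receptor and the history of each line cannot be told apart in this design. All levels below are the deposited log2 values, differences are Delta-HER2 minus WT-HER2 on the log2 scale, and "called" means an adjusted p below 0.05 in limma over all genes. Over all genes the standard error (SE) of the contrast had a median of 0.10 log2. WT-HER2 replicate 3 and control replicate 1 stood apart from the other arrays of their groups. On the second axis of variation, with 16.6% of the variance, they scored 32.07 and 10.34, and their estimated weights were 0.246 and 0.358 against up to 2.094 elsewhere. The first axis, with 64.9%, set the Delta-HER2 arrays (38.67 to 41.66) apart from the other 6 (−23.98 to −15.53). Array medians ranged from 4.04 to 4.18.

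ERBB2, the gene of the introduced receptor, had a higher total signal in the Delta-HER2 line. Its level was 7.98 on all 3 WT-HER2 arrays and 8.93, 8.96 and 8.97 on the Delta-HER2 arrays, against 6.97, 6.91 and 7.10 in control cells. The groups did not overlap, and the Delta-HER2 line had 1.97 times the WT-HER2 signal (difference 0.98, SE 0.07, adjusted p = 8.57e-06). The WT-HER2 values were identical in every deposited digit. That held for 465 transcript clusters in WT-HER2, 688 in Delta-HER2 and 549 in control cells, and such values make the spread of ERBB2 look smaller than it may be. The transcript cluster summarises the gene as a whole and does not separate the splice forms. Nor does it separate the introduced mRNA from the cells' own, which control cells also show, so the ratio of 1.97 is of total signal. Every difference below is therefore between lines that differ both in the form of the receptor and in its measured mRNA level.

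ERBB3, the kinase-impaired partner through which HER2 recruits PI3-kinase, was lower with the variant. WT-HER2 arrays read 6.02, 6.12 and 6.04, and Delta-HER2 arrays read 5.23, 5.21 and 5.21 (difference −0.85, SE 0.07, adjusted p = 2.65e-05). These groups also did not overlap. EGFR, the receptor of EGF, read 8.96, 9.05 and 8.96 with WT-HER2 and 8.70, 8.64 and 8.73 with Delta-HER2 (difference −0.30, SE 0.08, adjusted p = 0.0301). This small decrease did not pass without WT-HER2 replicate 1 (adjusted p = 0.0598), WT-HER2 replicate 2 (0.0975), Delta-HER2 replicate 1 (0.0784), 2 (0.092) or 3 (0.0624), nor with median centring of the arrays (0.128). ERBB4 was at background in both lines (2.74 ± 0.11 and 2.72 ± 0.02, SD, n = 3), where background is judged from 340 olfactory receptor genes with a 0.95 quantile of 3.18.

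**Figure D1:**
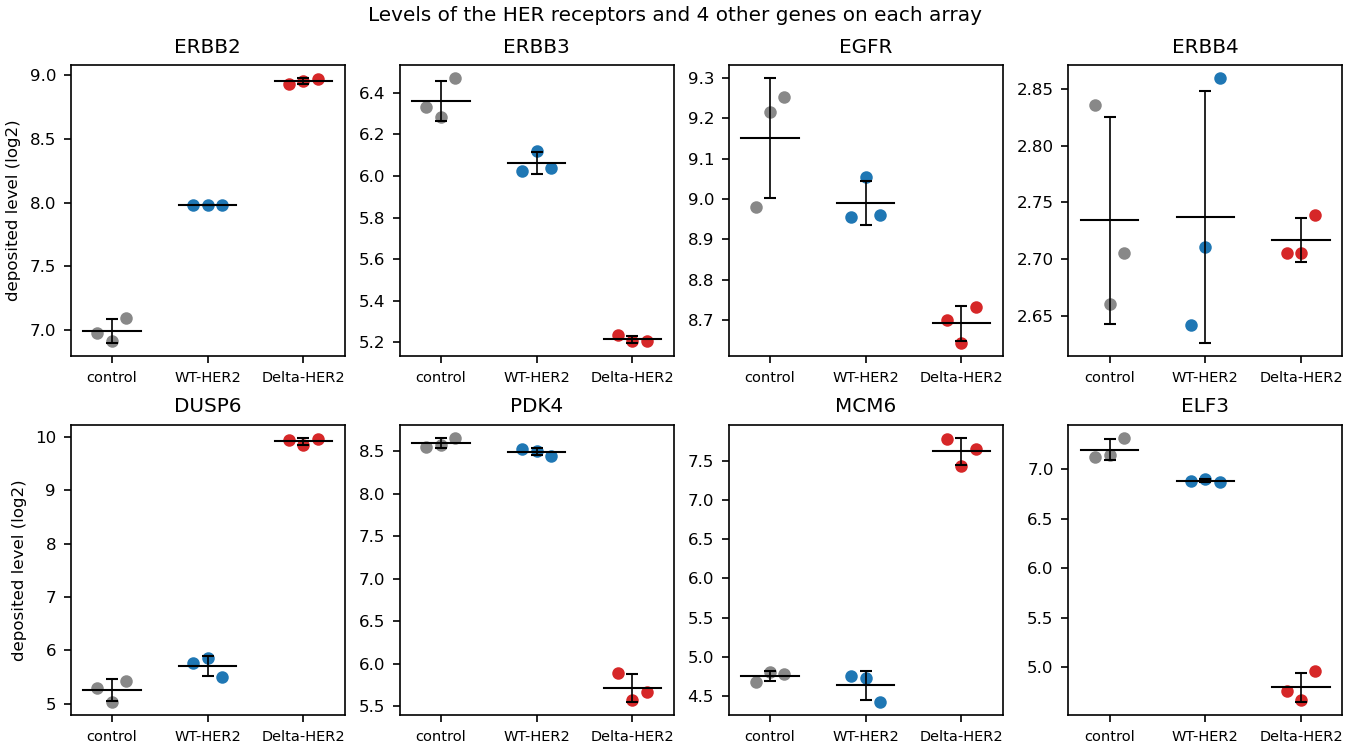
Deposited log2 level (vertical axis, a separate range in each panel) of the 4 HER receptors and of DUSP6, PDK4, MCM6 and ELF3 on each array of the 3 groups, with the group mean as a horizontal line and the SD as an error bar. ERBB2 stepped from 7.98 to 8.95 between the HER2 lines, ERBB3 was lower with Delta-HER2, and DUSP6, PDK4, MCM6 and ELF3 did not overlap between the HER2 lines while WT-HER2 arrays lay nearer to control.

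Across all 18404 genes, 4191 (22.8%) were called, 2470 higher (13.4%) and 1721 lower (9.35%) with Delta-HER2. At least 2-fold differences were seen in 601 of the higher and 180 of the lower genes, and at least 4-fold differences in 77 and 23. The median called increase was 0.65 log2 and the median called decrease −0.51, against a median of −0.04 over all genes. The arrays of the HER2 lines did not overlap for 6378 genes (34.7%), among them 4163 of the 4191 called genes. Without WT-HER2 replicate 3, 4030 genes were called, 54.6% of them higher in place of 58.9%, and without that array and control replicate 1 the count was 4554 with 53.4% higher. The share of higher genes was 68.2% after median centring of the arrays and 53.7% after quantile normalization. These scalings moved the median of all genes to 0.02 and −0.03. Among the 13604 genes with a HER2-line mean above background, 18% were called higher and 12.4% lower. These shares are the closer reference for the lists below, since 702 of their 778 measured genes were above background.

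**Figure D2:**
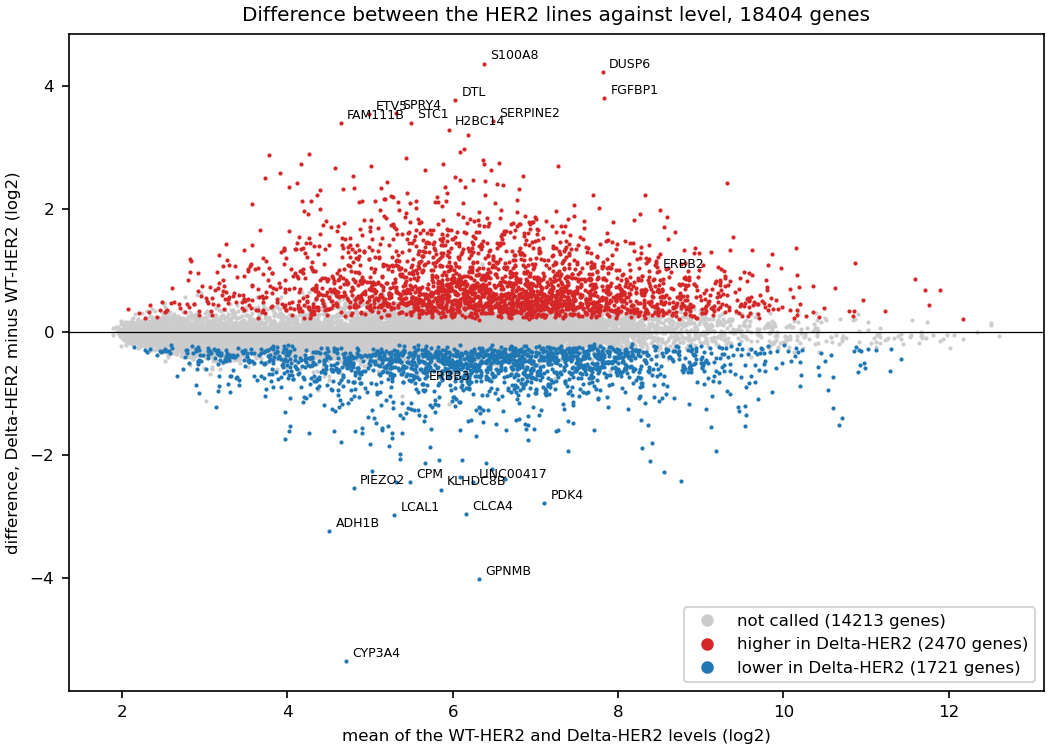
Difference between the HER2 lines (vertical axis, Delta-HER2 minus WT-HER2, log2) against the mean level of both lines (horizontal axis, log2) for 18404 genes, with called genes in red (2470 higher) and blue (1721 lower) and the rest in grey. Increases reached 4.36 (S100A8) and decreases −5.35 (CYP3A4), and called genes were found over the whole range of levels above background.

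Genes that ERK signaling induces formed one of the clearest blocks. Of 22 such genes, all above background, 16 were higher and 1 was lower, with a median of 1.12. Among all genes 13.4% were higher, with a median of −0.04, and among those above background 18% were higher. DUSP6 encodes a phosphatase that switches ERK off and is itself an ERK target. It read 5.76, 5.85 and 5.49 with WT-HER2, close to the 5.30, 5.03 and 5.43 of control cells, and 9.95, 9.85 and 9.97 with Delta-HER2, which is an 18.7-fold difference (4.22, SE 0.12, adjusted p = 1.68e-07). SPRY4, a Sprouty-type feedback inhibitor of receptor signaling, read 3.57, 3.50 and 3.50 with WT-HER2 and 6.94, 7.15 and 7.17 with Delta-HER2 (3.56, SE 0.14). For both genes the lowest Delta-HER2 array lay more than 3 log2 above the highest WT-HER2 array.

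The ETS transcription factor genes of the PEA3 group, which carry ERK signals to promoters, moved in parallel. ETV5 was higher by 3.55 (SE 0.10), ETV1 by 2.73 (SE 0.08) and ETV4 by 2.69 (SE 0.12). WT-HER2 levels of ETV5 (3.22 ± 0.20) and ETV1 (2.80 ± 0.09, SD) were at or near background, so the size of these differences is uncertain. PHLDA1, an apoptosis-related ERK target, was higher by 2.23 (SE 0.09). The cyclin D1 gene CCND1, which links growth factor signals to the cell cycle, went from 6.44 ± 0.05 to 8.05 ± 0.01 (1.62, SE 0.07). The called member in the other direction was EPHA4, an ephrin receptor gene, lower by 0.73 (−0.73, SE 0.12, adjusted p = 0.00182).

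Not every gene of this list was called. SPRY1 (0.27, 95% interval −0.02 to 0.56), DUSP5 (0.23, 0.03 to 0.44), LIF (0.31, 0.04 to 0.58), FOSL1 (0.28, −0.11 to 0.68) and SPRED3 (0.02, −0.43 to 0.48) were the 5 members not called. DUSP5 passed without Delta-HER2 replicate 1 (adjusted p = 0.0324) and LIF without control replicate 2 (0.0418). LIF also passed with quantile normalization (0.0243), median centring (0.0413), array weights (0.0204) and the HER2 lines alone (0.043). SPRY1 passed with array weights (0.0497). The intervals of SPRY1, DUSP5 and SPRED3 stay well under the differences of DUSP6 and SPRY4.

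Ligands of EGFR differed by member. Of 10 measured EGF-family ligand genes 3 were higher and 1 was lower, with a median of 0.17. EREG (epiregulin) read 5.09, 4.97 and 4.85 with WT-HER2 and 7.76 ± 0.24 (SD, n = 3) with Delta-HER2 (2.79, SE 0.15, adjusted p = 2.06e-06), with no Delta-HER2 array below 7.51. HBEGF, the heparin-binding ligand, read 4.63, 4.83 and 5.10 and then 7.31, 7.31 and 7.36 (2.47, SE 0.12). TGFA was higher by 1.28 (SE 0.09). All 3 are ligands of EGFR, whereas the member that was lower, NRG2 (−0.68, SE 0.08, adjusted p = 2.15e-04), encodes a neuregulin, a ligand of ERBB3 and ERBB4. Without WT-HER2 replicate 3 the list had 2 lower members and a median of 0.28.

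Immediate-early genes, the transcription factor genes that respond first to growth factors, were mixed, with 7 of 19 higher, 3 lower and a median of 0.03. EGR1 was at 6.78, 7.07 and 6.45 with WT-HER2 and at 8.71, 8.74 and 8.87 with Delta-HER2 (2.01, SE 0.14, adjusted p = 7.90e-06). FOS, a subunit of the AP-1 factor, was higher by 1.65 (SE 0.14) and JUN, its partner, by 0.97. KLF4, a factor of epithelial differentiation, was lower (−1.86, SE 0.10, adjusted p = 1.78e-06), with every Delta-HER2 array (4.21 to 4.39) under every WT-HER2 array (6.01 to 6.30).

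FOXO factors turn on genes of quiescence, atrophy and stress resistance when AKT activity is low. Of 25 FOXO target genes, 21 were lower and 3 higher with Delta-HER2, with a median of −0.63. Of all genes 9.35% were lower, and of those above background 12.4%. PDK4, whose kinase product keeps pyruvate out of the mitochondrial oxidation route, read 8.53, 8.51 and 8.45 with WT-HER2, 8.56, 8.57 and 8.66 in control cells and 5.90, 5.58 and 5.67 with Delta-HER2 (−2.78, SE 0.09, adjusted p = 2.24e-07). FBXO32, the ubiquitin ligase gene also known as atrogin, read 10.00, 10.00 and 9.93 and then 7.57, 7.48 and 7.63 (−2.42, SE 0.09). In both genes WT-HER2 arrays were near control, and Delta-HER2 arrays were lower by more than 2 log2.

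ERBB3 is itself a member of this list. Further members included PIK3IP1, an inhibitor of PI3-kinase (−1.44, SE 0.09), TNFSF10, which encodes the death ligand TRAIL (−1.82, SE 0.13), and the coactivator gene CITED2 (−0.89). The 3 members in the other direction were the pseudokinase genes TRIB2 (1.30, SE 0.11, adjusted p = 2.21e-05) and TRIB1 (0.70, SE 0.12) and the mitophagy gene BNIP3 (0.43, SE 0.10, adjusted p = 0.0139). BNIP3 did not pass without Delta-HER2 replicate 1 (adjusted p = 0.059) or 3 (0.0588). RICTOR, a subunit of the mTOR complex that phosphorylates AKT, was not called (0.05, 95% interval −0.22 to 0.32). TRIB1, TRIB2 and BNIP3 are also known as targets of other pathways, and the list does not separate these. The FOXO site letters GTAAACA were searched on either strand of the 250 bases before the start. They were found in 2 of 21 RefSeq promoters of this list (9.52%), against 2.07% of all promoters. The shares were 1.71% for higher and 2.44% for lower genes. The matches were in TRIB2, which was higher, and TXNIP, which was lower.

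Components of the pathways themselves were examined next. Of 20 SRC and focal adhesion genes, 4 were higher and 2 lower, with a median of −0.04 equal to that of all genes. The whole 95% interval lay within 0.5 log2 of 0 for 13 of them, against 61.4% of all genes and 50.7% of those above background. SRC itself, the kinase after which the family is named, read 5.53, 5.62 and 5.67 with WT-HER2 and 5.53 on all 3 Delta-HER2 arrays (−0.08, interval −0.23 to 0.08). The interval of PTK2, the focal adhesion kinase gene, was −0.43 to −0.00 (difference −0.22). BCAR1 and PXN, adaptor genes of focal adhesions, had differences of 0.04 and −0.01.

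The lower members of that list act in receptor turnover and adhesion. CBLB, whose product tags activated receptors for degradation, read 7.56, 7.51 and 7.46 and then 6.18, 5.87 and 6.21 (−1.42, SE 0.09, adjusted p = 6.20e-06). TNS3, a tensin that ties integrins to the cytoskeleton, was lower by 0.89 (−0.89, SE 0.11). LYN, a SRC-family kinase gene (0.55, SE 0.13, adjusted p = 0.0113), and CSK, whose kinase product inhibits the SRC family (0.39), were among the higher members.

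Among 16 PI3-kinase and AKT components 5 were higher and 4 lower, with a median of −0.02. MTOR, the kinase gene of the growth-promoting mTOR complexes, read 6.40, 6.48 and 6.35 with WT-HER2 and 7.22, 7.13 and 7.29 with Delta-HER2 (0.80, SE 0.07, adjusted p = 3.05e-05). AKT1 was higher by 0.56 (SE 0.07). INPP5D, a phosphatase gene that degrades the PI3-kinase product (−0.61, SE 0.06), and TSC1, a brake on mTOR (−0.48), were lower, whereas INPP4B, another lipid phosphatase gene, was higher by 0.73. The count of higher members was 3 without Delta-HER2 replicate 1 or without replicate 3.

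**Figure D3:**
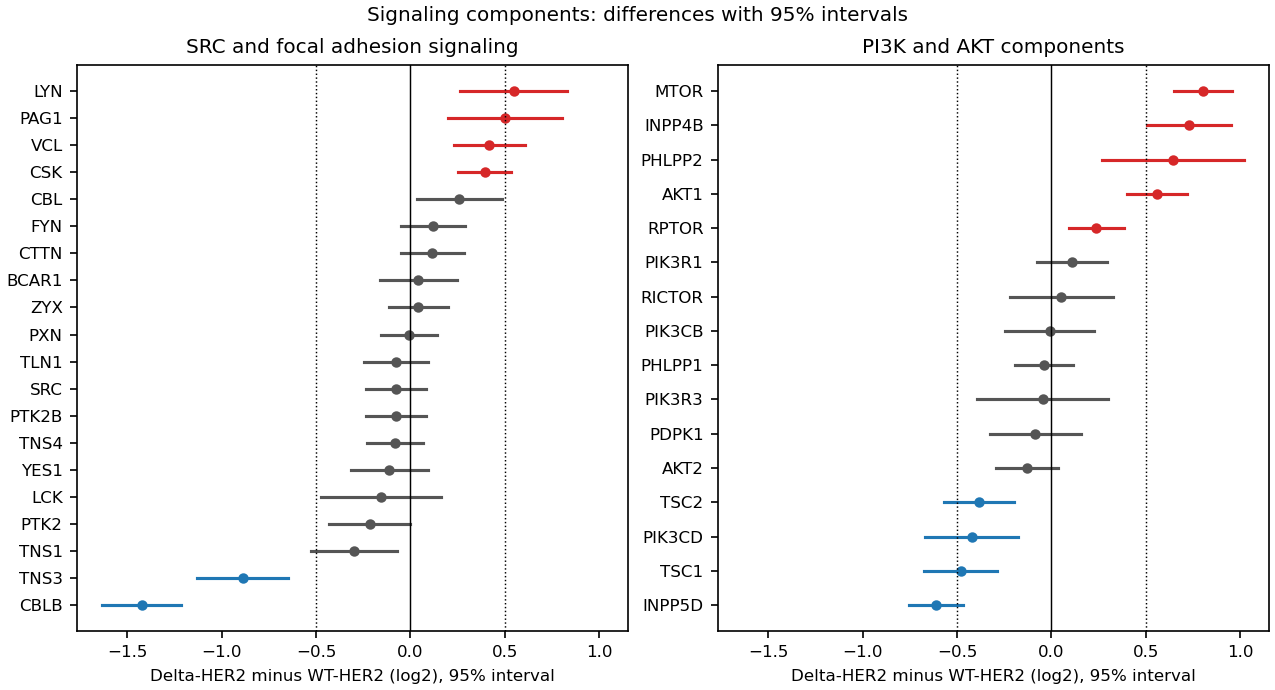
Difference between the HER2 lines (horizontal axis, Delta-HER2 minus WT-HER2, log2) with its 95% interval for 20 SRC and focal adhesion genes (left) and 16 PI3-kinase and AKT components (right), in red for genes called higher, blue for genes called lower and grey for the rest, with dotted lines at ±0.5 log2. Most SRC pathway intervals lay between the dotted lines, CBLB and TNS3 lay to the left of them, and MTOR had the largest increase of the right panel (0.80).

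Genes of DNA synthesis were higher almost throughout. Of 32 DNA replication genes 30 were higher and 0 lower, with a median of 1.67. None of the members of this list, or of those for mitosis, nucleotides, ribosomes, cholesterol, fatty acids and the TCA cycle below, was lower at an unadjusted p below 0.05 in limma either (0 in each list). MCM6, a subunit of the helicase that opens DNA at origins, read 4.76, 4.74 and 4.43 with WT-HER2, 4.69, 4.81 and 4.79 in control cells and 7.77, 7.43 and 7.65 with Delta-HER2 (2.98, SE 0.11, adjusted p = 4.97e-07). DTL, a ubiquitin ligase adaptor that acts on chromatin-bound replication proteins, was higher by 3.77 (SE 0.16), and CDC45, another part of the helicase, by 2.44. The helicase subunit gene MCM3 went from 4.96 ± 0.06 to 7.33 ± 0.06 (2.36, SE 0.11), the sliding clamp gene PCNA from 6.52 ± 0.21 to 8.40 ± 0.03 (1.88, SE 0.10) and the clamp loader gene RFC3 from 5.28 ± 0.41 to 7.50 ± 0.18 (2.22, SE 0.20).

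The members not called were CDT1, which licenses origins (0.23, 95% interval 0.00 to 0.46), and RPA3, a subunit of the single-strand binding protein (0.16, −0.04 to 0.37). RPA3 passed without WT-HER2 replicate 3 (adjusted p = 0.0186).

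E2F factors are known regulators of replication genes, and 4 members with matching letters are shown for that reason. A search for TTTGGCGC, TTTCCCGC or TTTCGCGC on either strand of the 250 bases before the start found a match in 12 of 28 replication genes with a RefSeq promoter entry (42.9%), against 3.24% of the 14228 promoters of all genes tested, 5.82% of those of higher genes and 2.44% of those of lower genes. TTTGGCGC and TTTCGCGC overlap within the MCM6 matches, on opposite strands. Stretches below are from GRCh38.p14, written 5′ to 3′ on the strand of the gene, with matches in capitals. They lie at chr2:135876513-135876608 (minus strand, MCM6), chr6:52284882-52284937 (minus, MCM3), chr20:5126652-5126702 (minus, PCNA) and chr13:33818069-33818119 (plus, RFC3). Each is upstream of the transcription start, and a match describes the letters and is no measured binding site.
MCM6: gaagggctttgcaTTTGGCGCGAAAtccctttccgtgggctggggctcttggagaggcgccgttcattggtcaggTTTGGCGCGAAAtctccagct
MCM3: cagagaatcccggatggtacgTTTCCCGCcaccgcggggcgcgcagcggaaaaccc
PCNA: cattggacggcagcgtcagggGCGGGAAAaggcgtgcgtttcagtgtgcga
RFC3: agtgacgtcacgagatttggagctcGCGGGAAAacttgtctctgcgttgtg

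Mitosis genes followed, with 27 of 27 higher and a median of 1.37. CCNB1, the cyclin that starts mitosis, read 7.95, 7.85 and 7.75 with WT-HER2 and 9.47, 9.24 and 9.39 with Delta-HER2 (1.51, SE 0.08, adjusted p = 2.14e-06). BUB1B, a spindle checkpoint kinase gene, was higher by 1.73, PRC1, a spindle midzone gene, by 1.45, and the proliferation marker MKI67 by 1.29 (SE 0.07). The range over the list was 0.79 (BIRC5) to 1.96 (KIF23), and arrays of the lines did not overlap for CCNB1, BUB1B, PRC1 or MKI67. In bulk RNA such values do not tell a larger share of dividing cells from more RNA per dividing cell, which holds for each group of genes described.

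CCAAT boxes are known elements of mitotic gene promoters, and CCNB1 is shown as an example with a pair of them. CCAAT on either strand was present in 17 of 22 mitosis promoters (77.3%), against 34.4% of all 14228, 41.9% of those of higher genes and 33% of those of lower genes. The stretch is chr5:69167040-69167120 on the plus strand of GRCh38.p14, upstream of the CCNB1 start, with the matches in capitals.
CCNB1: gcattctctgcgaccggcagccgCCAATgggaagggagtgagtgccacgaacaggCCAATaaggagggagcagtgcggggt

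At the G1 stage of the cycle, 6 of 14 cyclin and inhibitor genes were higher and 3 lower, with a median of 0.18. Cyclin E2 (CCNE2) was higher by 2.36 (SE 0.25, adjusted p = 1.09e-04) from a WT-HER2 level at background (2.84 ± 0.05), and its Delta-HER2 arrays varied more than most (5.83, 4.57 and 5.20). CDC25A, a phosphatase gene that activates cyclin-dependent kinases, was higher by 1.73 (SE 0.10). The lower members were inhibitors of these kinases. CDKN1B, which encodes p27, was at −0.51 (SE 0.09, adjusted p = 0.00202), CDKN1A, which encodes p21, at −0.36 and CDKN1C at −0.42. CDKN1C kept its call only when the array left out was control replicate 1 or Delta-HER2 replicate 2, and without the others its adjusted p was 0.0547 to 0.11.

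Synthesis of nucleotides, the building blocks of DNA and RNA, was represented by 24 genes, of which 20 were higher and 0 lower, with a median of 1.01. CTPS1, which makes cytidine triphosphate, read 5.25, 5.32 and 4.97 with WT-HER2, 5.62, 5.49 and 5.26 in control cells and 7.94, 7.87 and 7.99 with Delta-HER2 (2.75, SE 0.11, adjusted p = 8.19e-07). RRM2, a subunit of ribonucleotide reductase, was higher by 2.13 (SE 0.12), TYMS, which makes thymidylate, by 1.72, and CAD, the first enzyme of pyrimidine synthesis, by 1.80 (SE 0.07). The members not called were SHMT2 (0.13), IMPDH1 (0.08), IMPDH2 (−0.00) and SHMT1 (−0.11), enzymes of serine-derived one-carbon units and of guanine nucleotides. The interval of IMPDH2 was −0.15 to 0.14. Without WT-HER2 replicate 3 and control replicate 1, 1 member was lower.

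Ribosome biogenesis genes, which act in the nucleolus and are classical MYC targets, were higher in 21 of 23 cases, with 0 lower and a median of 1.23. NOLC1, a nucleolar chaperone gene, read 6.56, 6.54 and 6.20 with WT-HER2 and 8.66, 8.36 and 8.46 with Delta-HER2 (2.06, SE 0.12, adjusted p = 2.75e-06). NOP2, an RNA methyltransferase gene, was higher by 1.76 and DKC1, the pseudouridine synthase gene, by 1.66. MYC itself was higher by 1.01 (SE 0.08). FBL (0.20, interval 0.02 to 0.37) and NPM1 (−0.07, interval −0.28 to 0.13), which encode the abundant nucleolar proteins fibrillarin and nucleophosmin, were the members not called. The MYC-type E-box CACGTG was found in 1 of 18 promoters of this list (5.56%) and in 7.86% of all promoters, 10.1% of those of higher genes and 8.68% of those of lower genes.

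**Figure D4:**
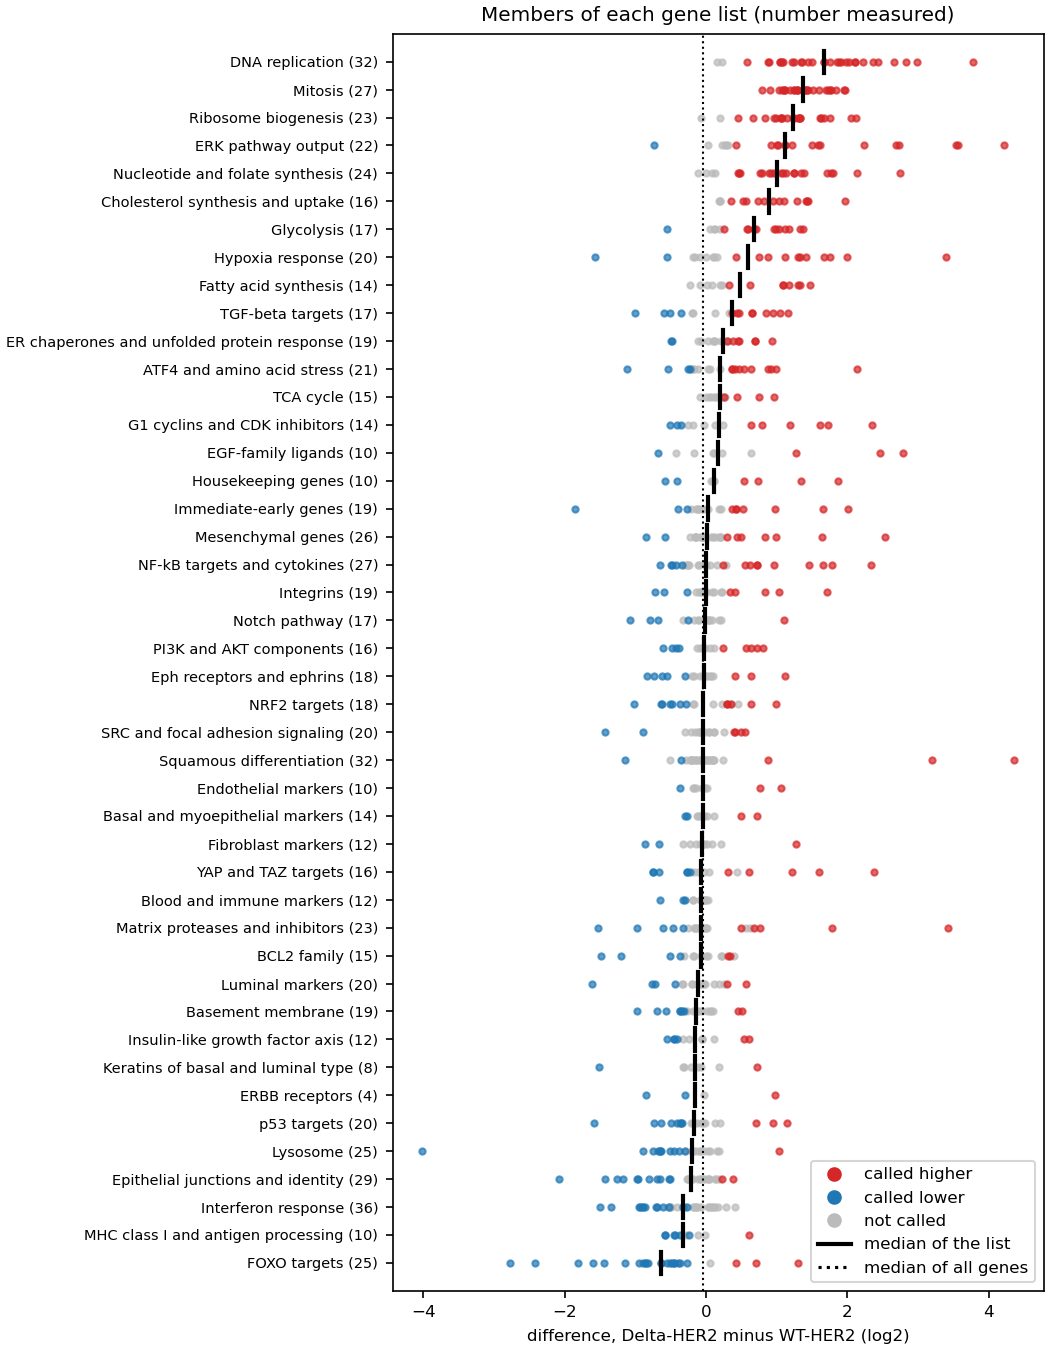
Difference between the HER2 lines (horizontal axis, Delta-HER2 minus WT-HER2, log2) for each measured member of 44 gene lists, sorted by the median of the list (black bar), with the number of members in brackets, called genes in red (higher) or blue (lower), others in grey and the median of all genes as a dotted line. DNA replication (median 1.67), mitosis (1.37) and ribosome biogenesis (1.23) lie at the top and FOXO targets (−0.63) at the bottom.

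Sterol and fatty acid synthesis genes, which SREBP factors control, were higher as well. Of 16 cholesterol genes 13 were higher and 0 lower, with a median of 0.89. HMGCS1, an early enzyme of the mevalonate route, read 7.68, 7.56 and 7.33 with WT-HER2 and 9.65, 9.46 and 9.39 with Delta-HER2 (1.97, SE 0.10, adjusted p = 2.00e-06). INSIG1, the sterol-sensing brake on SREBP, was higher by 1.43 (SE 0.07) and FDPS, which makes farnesyl diphosphate, by 1.41. SREBF2, the gene of the factor itself, had a difference of 0.20 (interval 0.03 to 0.38) and was not called, like PMVK (0.20) and LSS (0.18). LSS passed after median centring (adjusted p = 0.0403).

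Fatty acid synthesis showed 8 of 14 genes higher, 0 lower and a median of 0.48. ACLY, which cleaves citrate to acetyl-CoA, read 8.67, 8.70 and 8.72 and then 10.04, 10.01 and 10.01 (1.33, SE 0.06, adjusted p = 9.31e-07). FADS2, a desaturase gene, was higher by 1.47 and FASN, the fatty acid synthase gene, by 1.09. SREBF1 was at 7.12 ± 0.07 with WT-HER2 and 7.13 ± 0.09 with Delta-HER2 (0.01, interval −0.15 to 0.17), so the factor's own mRNA was alike within 0.17 log2. The sterol regulatory element TCACNCCAC was found in 1 of 15 cholesterol promoters (6.67%) and in 0.872% of all promoters, 0.733% of those of higher genes and 0.933% of those of lower genes. That 1 match was in SREBF2, which was not called, so no called cholesterol gene with a promoter entry held the letters.

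Glycolysis genes were higher in 12 of 17 cases and lower in 1, with a median of 0.69. PGK1, an ATP-yielding enzyme of the pathway, read 9.02, 8.97 and 8.88 and then 10.28, 10.26 and 10.33 (1.33, SE 0.07, adjusted p = 2.39e-06). LDHA, which turns pyruvate into lactate, was higher by 1.12 (SE 0.07), and TPI1 and GPI by 1.04 and 0.96. The exception was the glucose transporter gene SLC2A1, at 9.49, 9.55 and 9.60 with WT-HER2 and between 8.96 and 9.06 with Delta-HER2 (−0.55, SE 0.06, adjusted p = 2.10e-04). A second transporter gene, SLC2A3, went the other way by 2.00 (SE 0.09) from a low level of 3.40 ± 0.02.

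Genes known from the hypoxia response were mostly higher. Of 20 genes, 11 were higher and 2 lower, with a median of 0.59. VEGFA, the vascular growth factor gene, read 5.96, 5.91 and 5.90 with WT-HER2 and 7.75, 7.63 and 7.67 with Delta-HER2 (1.76, SE 0.07, adjusted p = 4.97e-07), and STC1, which encodes a secreted glycoprotein, was higher by 3.40 (SE 0.10). ADM, which encodes the vasodilator adrenomedullin, read 7.73, 7.69 and 7.88 and then 6.20, 6.18 and 6.20 (−1.57, SE 0.07, adjusted p = 8.97e-07). ADM and SLC2A1, both commonly used hypoxia markers, were the called members that were lower, and PGK1 and LDHA belong to this list and to glycolysis. In the TCA cycle 4 of 15 genes were higher and 0 lower, led by IDH3A (0.97). That count was 2 without Delta-HER2 replicate 1 or without replicate 3.

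Interferon response genes were lower in part with Delta-HER2. Of 36 genes, 13 were lower and 0 higher, with a median of −0.32. The lower members were led by the IFIT genes, whose products bind foreign RNA. IFIT1 read 8.04, 7.86 and 7.27 with WT-HER2, 6.36, 6.49 and 6.58 in control cells and 6.60, 6.18 and 6.34 with Delta-HER2 (−1.35, SE 0.19, adjusted p = 5.65e-04). IFIT2 was lower by 1.50 (−1.50, SE 0.21) and IFIT3 by 0.95 (−0.95, SE 0.13), and IRF9, a subunit of the interferon-activated transcription factor, by 0.70 (−0.70). The Delta-HER2 arrays of IFIT1 lay in or near the control range, and the WT-HER2 arrays lay above both.

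Other interferon genes of the list were not called, with intervals of differing width. OASL, an antiviral gene related to the oligoadenylate synthetases, was at 6.14 ± 0.17 with WT-HER2 and 6.08 ± 0.10 with Delta-HER2 (SD, n = 3, difference −0.07, interval −0.29 to 0.15), against 4.76, 4.67 and 4.63 in control cells. CXCL10, a chemokine gene, had levels of 4.84 ± 0.39 and 4.92 ± 0.07 (0.07, interval −0.31 to 0.46). HERC5, a ligase for the ubiquitin-like protein ISG15, read 5.60, 5.57 and 4.53 and then 5.48, 4.72 and 5.02 (−0.16, interval −0.80 to 0.47), and the helicase gene DDX60 read 6.49, 6.33 and 5.93 and then 6.74, 6.48 and 6.75 (0.40, interval 0.04 to 0.76, not called). WT-HER2 replicate 3 was the lowest WT-HER2 array for IFIT1, OASL, HERC5 and DDX60. Without it 18 members were lower, and without WT-HER2 replicate 3 and control replicate 1 the count was 19, while over the arrays left out singly it ranged from 9 to 18. The median was −0.43 without WT-HER2 replicate 3. At an unadjusted p below 0.05, 19 members were lower and 1, DDX60, was higher.

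Letters of the interferon-stimulated response element occur in members of both subsets, and 2 genes of each that hold them are shown. Their share within each subset was not computed. The letters GAAA, any 2 bases and GAAA again, on either strand, which is a core of this element, was found in 17 of 29 promoters of the list (58.6%), against 2.57% of all promoters, 2.25% of those of higher genes and 3.73% of those of lower genes. The stretches are upstream of the starts in GRCh38.p14, at chr10:89392493-89392543 (plus strand, IFIT1), chr10:89327827-89327892 (plus, IFIT3), chr4:88456979-88457064 (plus, HERC5) and chr4:168318787-168318857 (minus, DDX60), with matches in capitals (in HERC5 a pair of matches overlaps). IFIT1 and IFIT3 differed between the lines and HERC5 and DDX60 were not called.
IFIT1: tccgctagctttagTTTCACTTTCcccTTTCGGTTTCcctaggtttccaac
IFIT3: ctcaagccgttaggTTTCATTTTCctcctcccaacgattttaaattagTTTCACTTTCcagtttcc
HERC5: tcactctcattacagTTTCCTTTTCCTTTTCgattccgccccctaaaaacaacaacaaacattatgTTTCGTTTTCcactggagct
DDX60: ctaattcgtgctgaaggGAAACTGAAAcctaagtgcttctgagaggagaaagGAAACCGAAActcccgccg

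Of 10 antigen presentation genes 6 were lower and 1 higher (median −0.33). B2M, the invariant chain of class I molecules, was lower by 0.59 (−0.59) and the immunoproteasome gene PSMB9 by 0.44 (−0.44), while the peptide transporter gene TAP2 was higher by 0.61. The lower count was 3 without WT-HER2 replicate 1 or without WT-HER2 replicate 2.

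Target genes of NF-kB, including cytokine genes, were higher or lower by member. Of 27 genes 10 were higher and 5 lower, with a median of 0.01. CXCL8 (interleukin 8), which attracts neutrophils, read 3.50, 3.89 and 3.53 with WT-HER2 and 6.18, 5.69 and 6.07 with Delta-HER2 (2.34, SE 0.15, adjusted p = 5.95e-06). IL1A and IL1B, the interleukin 1 genes, were higher by 1.78 (SE 0.17) and 1.65 (SE 0.11), and CXCL1 by 1.46. The lower members were NFKBIA, the inhibitor of NF-kB (−0.43), SOD2, the mitochondrial superoxide dismutase gene (−0.48), LCN2, which encodes an iron-siderophore binder (−0.65), RELB (−0.49) and TNFAIP2 (−0.34). Neither RELB nor TNFAIP2 passed without WT-HER2 replicate 2 (adjusted p = 0.0947 and 0.0966), Delta-HER2 replicate 1 (0.0989 and 0.108) or Delta-HER2 replicate 3 (0.0842 and 0.0678), and the lower count was then 3. RELB also lost its call without WT-HER2 replicate 3 (0.0586), and TNFAIP2 without WT-HER2 replicate 1 (0.102) or Delta-HER2 replicate 2 (0.0626).

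Epithelial junction and identity genes were lower in part. Of 29 genes 11 were lower and 2 higher, with a median of −0.22. ELF3, an epithelial ETS factor gene, read 6.88, 6.90 and 6.87 with WT-HER2, 7.13, 7.15 and 7.32 in control cells and 4.75, 4.67 and 4.96 with Delta-HER2 (−2.09, SE 0.09, adjusted p = 8.97e-07). PPL (periplakin) was lower by 1.26 (−1.26), the desmosomal cadherin genes DSC2 and DSG3 by 1.17 and 0.96 (−1.17 and −0.96), and the tight junction gene CLDN7 by 0.97 (−0.97). E-cadherin (CDH1) went from 8.76 ± 0.03 to 8.06 ± 0.03 (−0.70, SE 0.07, adjusted p = 6.88e-05). EPCAM, another epithelial surface marker, was not called (0.18, interval −0.23 to 0.60). Those called higher were ESRP2 (0.38), a splicing regulator of epithelia, and the desmosome gene PKP2 (0.23). ESRP2 did not pass without WT-HER2 replicate 1 (adjusted p = 0.0585) or Delta-HER2 replicate 1 (0.0627), and PKP2 passed with no single array left out except control replicate 1 (0.0625 to 0.147 otherwise).

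Mesenchymal genes did not move as a block. Of 26 genes 7 were higher and 2 lower, and the median was 0.02. VCAN (versican), a matrix proteoglycan gene, read 5.55, 5.98 and 5.23 with WT-HER2 and 8.11, 8.11 and 8.13 with Delta-HER2 (2.53, SE 0.16, adjusted p = 5.49e-06), and the matrix gene TNC (tenascin C) was higher by 1.64. N-cadherin (CDH2) went from 5.26 ± 0.04 to 6.26 ± 0.09 (1.00, SE 0.08). By contrast the transcription factor genes TWIST1 (−0.85, SE 0.08, adjusted p = 7.86e-05) and ZEB2 (−0.59, SE 0.10) were lower. VIM (vimentin) was at 9.68 ± 0.12 and 9.53 ± 0.06 (−0.14, interval −0.33 to 0.04), SNAI2 had an interval of −0.26 to 0.19 and ZEB1 of −0.09 to 0.35.

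Of 8 basal and luminal keratin genes, 1 was higher and 1 lower (2 lower without WT-HER2 replicate 2). The basal keratin gene KRT5 was at 11.77 ± 0.01 with WT-HER2 and 11.67 ± 0.09 with Delta-HER2 (−0.11, interval −0.26 to 0.04). For 12 of 14 basal and myoepithelial markers the interval lay within 0.5 log2 of 0, as for 50.7% of all genes above background. KRT15, a keratin of basal progenitors, was lower (11.45, 11.46 and 11.39, then 9.78, 9.93 and 10.03, difference −1.52, SE 0.09), and KRT14 was higher by 0.73 (SE 0.07). Of 20 luminal markers, 13 of them above background, 4 were lower, 2 higher and 14 not called, with a median of −0.11. The lower ones included the surface glycoprotein gene CD24 (−1.62, SE 0.24, adjusted p = 9.05e-04) and the luminal factor gene GATA3 (−0.76). The higher ones were ALDH1A3 (0.56, SE 0.11, adjusted p = 0.00429) and XBP1 (0.29). With the mean of its clusters ALDH1A3 was not called (0.12). Without WT-HER2 replicate 1 or Delta-HER2 replicate 3 the lower count was 2, and the higher count was 1 without any 1 array other than control replicate 1 and WT-HER2 replicate 2.

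Squamous differentiation genes, with 3 of 32 higher, 2 lower and a median of −0.04, held the largest single increase. S100A8 and S100A9 encode the calcium-binding subunits of calprotectin, which epithelia make under stress. S100A8 read 4.29, 4.52 and 3.79 with WT-HER2, 5.86, 5.93 and 5.92 in control cells and 8.43, 8.63 and 8.61 with Delta-HER2, so the control level lay between the lines (4.36, SE 0.16, adjusted p = 4.89e-07). S100A9 was higher by 3.20 (SE 0.16). KRT10, the keratin of differentiating keratinocytes, was lower instead (−1.14, SE 0.16, adjusted p = 6.74e-04), and 21 of the 32 intervals lay within 0.5 log2 of 0, where 61.4% of all genes did. Only 19 of the 32 were above background in a HER2 line. The median was 0.06 without WT-HER2 replicate 3.

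Matrix, adhesion and protease genes differed one by one, where 18% of all genes above background were higher and 12.4% lower. The protease inhibitor gene SERPINE2 read 4.82, 4.82 and 4.67 with WT-HER2 and 8.10, 8.16 and 8.34 with Delta-HER2 (3.43, SE 0.13), whereas TIMP3, an inhibitor of metalloproteinases, read 10.26, 10.34 and 10.30 and then 8.83, 8.72 and 8.78 (−1.53, SE 0.07). The list held 5 higher and 5 lower genes of 23. Of 19 integrin genes 5 were higher and 3 lower, with ITGB6, the epithelial integrin of migrating cells that activates TGF-beta, higher by 1.72 (SE 0.12) and ITGB8 lower (−0.72). Basement membrane genes were lower in 7 and higher in 2 of 19 cases, among them the laminin gene LAMB2 (−0.97) and the collagen genes COL4A2 (0.51) and COL4A1 (0.45), which were higher.

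TGF-beta pathway genes were higher in 9 and lower in 4 of 17 cases, with a median of 0.37. For this list and those that follow, the shares of all genes above background were 18% higher and 12.4% lower. LTBP2, a matrix protein gene of the TGF-beta binding family, was higher by 1.16 (SE 0.06) and ID1 by 0.95, but ID3, a close relative of ID1, fell by 1.00 log2 (SE 0.09). YAP and TAZ targets were also split, with 5 higher and 6 lower of 16 (3 lower without Delta-HER2 replicate 3). F3, the tissue factor gene, was higher by 2.38 (SE 0.15) and NT5E, which encodes the ectonucleotidase CD73, by 1.60, while the receptor kinase gene AXL was lower (−0.67). Eph receptors differed by member, with EPHA2 higher by 1.12 (SE 0.08) and EPHB3 lower (−0.83), in a list with 3 higher and 5 lower of 18. In the Notch pathway the receptor gene NOTCH1 was lower (−1.07, SE 0.07, adjusted p = 8.60e-06) and the target gene HEY1 higher (1.11), with 1 higher and 4 lower of 17 (2 higher without WT-HER2 replicate 2).

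Genes of stress and death programs leaned in different directions. Of 15 BCL2 family genes 4 were lower and 2 higher, and those with the smallest p were the death-promoting BH3-only genes BMF (−1.49, SE 0.09, adjusted p = 4.23e-06) and BCL2L11, which encodes BIM (−1.20, SE 0.13). The higher members BID (0.32) and BCL2L1 (0.34) lost their calls without any 1 WT-HER2 array or Delta-HER2 replicate 1 (adjusted p from 0.0532 to 0.137). BID also lost it without control replicate 3 (0.0577) or Delta-HER2 replicate 3 (0.132), and BCL2L1 without control replicate 2 (0.0559) or Delta-HER2 replicate 2 (0.126). Among 20 p53 targets 8 were lower and 3 higher (median −0.17), led by TP53INP1 (−1.59, SE 0.15). The serine synthesis gene PSAT1 was higher by 2.13 (SE 0.10) in an ATF4 list with 10 higher and 4 lower of 21, in which DDIT3, the stress factor CHOP, was lower (−1.12). That lower count was 2 without WT-HER2 replicate 2, Delta-HER2 replicate 1 or Delta-HER2 replicate 3.

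NRF2 targets had 5 higher and 7 lower members of 18, with the thioredoxin reductase gene TXNRD1 at −1.01 (SE 0.08). The higher count was 3 without WT-HER2 replicate 3 or without any 1 of the Delta-HER2 arrays. Chaperone genes of the endoplasmic reticulum were higher in 7 and lower in 2 of 19 cases, led by HYOU1 (0.94). Lysosome genes were lower in 11 of 25 cases and higher in 1, with a median of −0.20. GPNMB, a glycoprotein gene of lysosomes and melanosomes, read 8.43, 8.43 and 8.11 with WT-HER2 and 4.16, 4.45 and 4.32 with Delta-HER2 (−4.01, SE 0.12, adjusted p = 1.68e-07), and the autophagy receptor gene SQSTM1 was lower by 0.89 (−0.89). The single higher member was GLA, which encodes a lysosomal galactosidase (1.04), and without WT-HER2 replicate 3 there were 2. Of 12 genes of the insulin-like growth factor axis 2 were higher (IGFBP7 0.61 and IRS1 0.54) and 4 lower, among them IRS2 (−0.56), IGFBP5 (−0.46) and IGF2R (−0.40). Among all genes above background 18% were higher and 12.4% lower.

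Outside these lists the largest increases were FGFBP1, whose product releases fibroblast growth factors from the matrix (3.81, SE 0.08), FAM111B (3.39, SE 0.15), the histone gene H2BC14 (3.29, SE 0.22), the DNA repair exonuclease gene EXO1 (2.92, SE 0.16), the replication checkpoint gene CLSPN (2.90, SE 0.18) and the serpin gene SERPINB3 (2.87, SE 0.14). FGFBP1 read 5.93, 6.04 and 5.82 with WT-HER2 and 9.81, 9.70 and 9.70 with Delta-HER2. WT-HER2 levels of FAM111B (2.95 ± 0.22), CLSPN (2.81 ± 0.19) and SERPINB3 (2.34 ± 0.25) were at background, which leaves their size uncertain. FGFBP1 and H2BC14 were above background in both lines.

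The largest decrease was that of CYP3A4, a drug- and steroid-metabolising cytochrome gene, with 7.51, 7.46 and 7.18 in WT-HER2, 6.23, 6.98 and 7.20 in control and 2.27, 1.85 and 1.98 in Delta-HER2 cells (−5.35, SE 0.23, adjusted p = 8.81e-07). Delta-HER2 levels of CYP3A4 and of the alcohol dehydrogenase gene ADH1B (2.89 ± 0.11, difference −3.24) were at background, so these sizes are uncertain too. CLCA4 (−2.96), KLHDC8B (−2.56), the ion channel gene PIEZO2 (−2.55), the carboxypeptidase gene CPM (−2.45), GALNT15 (−2.43), ZSCAN31 (−2.40), the selenium transport gene SELENOP (−2.36) and MAOA, a monoamine oxidase gene (−2.29), followed. The non-coding genes LCAL1 (−2.99) and LINC00417 (−2.44) were among them. CPM differed from most of these in that the WT-HER2 arrays (6.43 to 6.97) lay above control (4.96 to 4.99) and the Delta-HER2 arrays (3.97 to 4.42) below it.

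**Figure D5:**
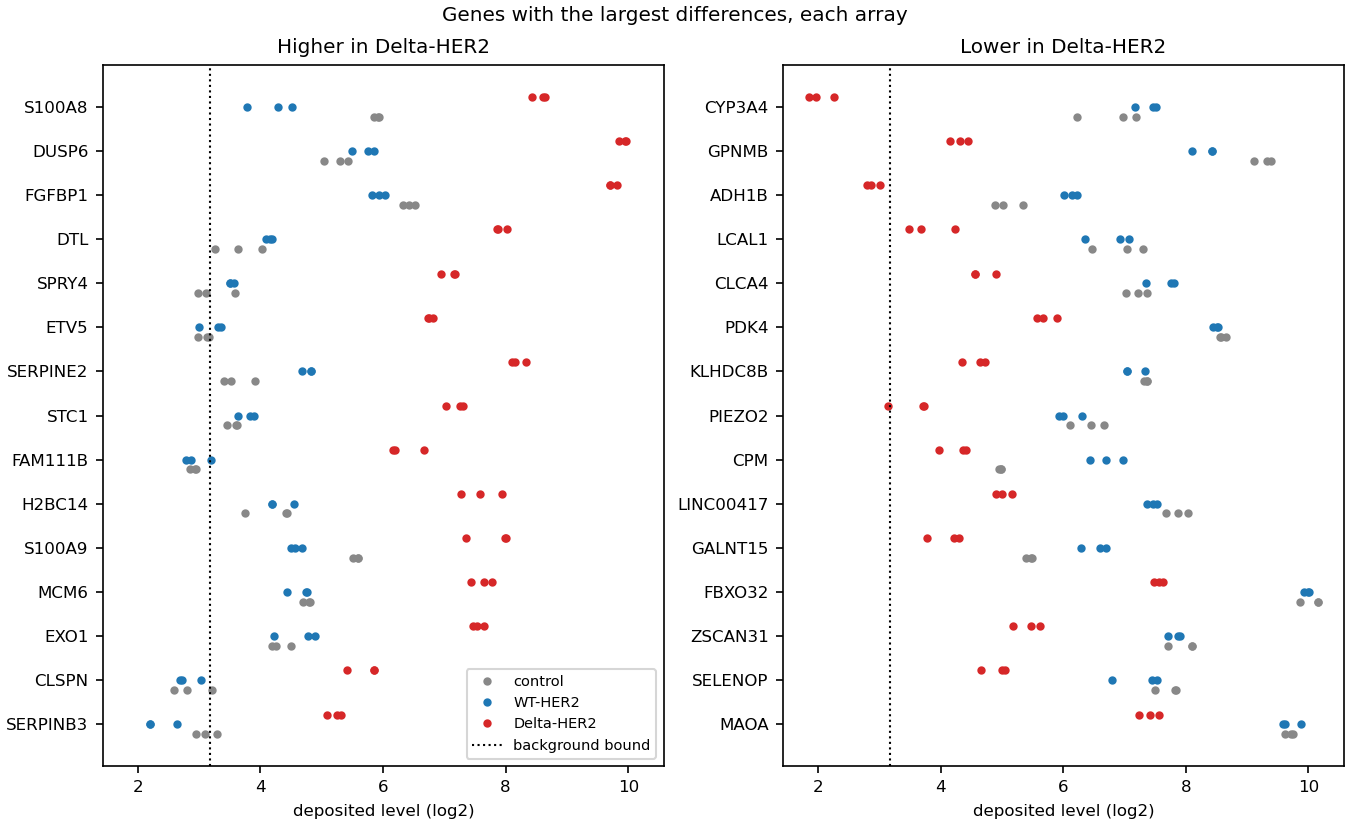
Deposited log2 level (horizontal axis) on each array of the 15 genes with the largest called increases (left) and the 15 with the largest called decreases (right), with Delta-HER2 in red, WT-HER2 in blue, control in grey and the background bound of 3.18 as a dotted line. Delta-HER2 and WT-HER2 points are separated in every row, as the rule for choosing these genes required, and WT-HER2 points mostly lie near control.

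A p that misses the threshold does not show alike levels, and intervals were used for that purpose. For 11298 genes (61.4%) the 95% interval lay within 0.5 log2 of 0, and for 5016 it lay within 0.3. Among the 13604 genes with a HER2-line mean above background the share was 50.7% (6894 genes). The interval was this narrow for 394 called genes, whose differences are thus small.

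Markers of other cell types were mixed in level. Of the marker lists, 8 of 12 fibroblast genes, 5 of 12 blood and immune genes and 4 of 10 endothelial genes were above background in a HER2 line. The highest included the matrix genes FBLN1 (8.97 with WT-HER2 and 8.12 with Delta-HER2) and DCN (7.73 and 7.07), CD14 (8.28 and 7.96), which encodes a lipopolysaccharide co-receptor, the lysosomal gene CD68 (6.87 and 6.69) and the TGF-beta co-receptor gene ENG (6.16 and 6.93). Other markers of blood cells (PTPRC at 2.22 and 2.21, CD3E at 2.89 and 2.89 with WT-HER2 and Delta-HER2), of endothelium (VWF at 2.60 and 2.57) and of fibroblasts (PDGFRA at 2.65 and 2.66, LUM at 2.06 and 2.03) were at background. By call, 1 of 12 fibroblast genes was higher and 2 lower (FAP 1.27, FBLN1 −0.86, DCN −0.66), 0 of 12 blood and immune genes were higher (0 also at an unadjusted p below 0.05 in limma) and 3 lower (1 lower without WT-HER2 replicate 2), led by CSF1R (−0.65), and 2 of 10 endothelial genes were higher and 1 lower (PECAM1 1.07, ENG 0.77, CDH5 −0.37). PECAM1 was under the background bound with WT-HER2 (2.83) and CDH5 in both lines (3.13 and 2.76), so the sizes of these differences are uncertain. CDH5 kept its call only when the array left out was WT-HER2 replicate 1 or 2, with an adjusted p of 0.0622 to 0.155 without any 1 of the others. Over all genes 13.4% were higher and 9.35% lower, and over those above background 18% and 12.4%. The part of such cells in the results was not tested. Mean marker levels per array ranged from 4.54 to 4.63 with WT-HER2 and from 4.50 to 4.54 with Delta-HER2 for fibroblast genes, from 3.72 to 3.90 and from 3.59 to 3.69 for blood genes, and from 3.25 to 3.47 and from 3.39 to 3.43 for endothelial genes.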

How the data were processed

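Affymetrix whole-transcript arrays, 3 per group, measured total RNA. The deposited values are log2 intensities that the authors made by RMA (affy package, R 2.14), per the submitters' processing notes, which corrects background, normalizes by quantiles and summarises probes. RMA compresses low levels, so differences near background are understated. A genome build is not given in the sources used here. Of 32321 transcript clusters, 19158 had exactly 1 symbol, 1388 had several and 11775 were not listed in the platform annotation. Of those with 1 symbol, 19128 matched an Entrez gene. This gave 18404 genes, 637 of them with several clusters, and low levels were kept.

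The values were fitted as deposited by limma 3.58.1 (R 4.3.3, with statmod 1.5.0) over all 9 arrays, using a coefficient for each group, moderated two-sided tests (residual degrees of freedom 6, prior 3.25) and Benjamini-Hochberg adjustment over all genes. The number of arrays limits the precision. The procedure was tested on simulated data. The alternatives were quantile normalization, median centring, filters on low levels, all clusters, the mean of the clusters of a gene, trended and robust variance, array weights, a replicate block, the HER2 lines alone, stricter thresholds and each array left out. Leaving out 2 arrays together was chosen after seeing the data. Promoters were RefSeq entries of GRCh38.p14, 1 per gene.

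Of 849 genes in 44 lists 778 were measured, 702 of them above background in a HER2 line. The comparison, the members and the lists were chosen with earlier results of these data known. The genes named are the HER receptors, the 15 largest called increases and decreases with arrays that do not overlap and a mean above background, the 5 members of each list with the smallest p and up to 5 called members against the majority of a list. Members not called, genes whose promoters are printed and those of an added list of hydrocortisone-induced genes were named after their values were seen, as were ETV4, CDH1, MYC, BIRC5 and KIF23.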

Additional observations from a re-analysis of the deposited data

Results flagged for a closer look

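Transcript clusters without exactly 1 gene symbol were outside the comparison and also differed between the HER2 lines. Of 13163 such clusters, 1018 were called by limma over all clusters, 547 higher and 471 lower with Delta-HER2. Of all 32321 clusters in the same fit 4718 were called, which is a larger share. Among the 11775 clusters not listed in the annotation the share was 6.68% (427 higher and 359 lower), and of the 1388 with several symbols 232 were called, 120 of them higher. The cluster shared by NME1 and the NME1-NME2 readthrough, a nucleoside diphosphate kinase locus, read 6.53, 6.06 and 6.19 with WT-HER2 and 8.70, 8.82 and 8.81 with Delta-HER2 (2.52, SE 0.13). That of ELAC2 and HMGA2 was higher by 1.76, and that of PGAM1 and PGAM4 by 1.44. Both clusters of the host gene of the microRNA miR-29 cluster, MIR29B2CHG, were lower (−1.95 and −1.69). Signals of the listed genes cannot be separated within such a cluster. The clusters named here were chosen with their values known.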

How the results depend on the processing

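Main counts were 4191 called genes, 2470 higher and 1721 lower. At adjusted p below 0.01 they were 2772 called and 1017 lower, and with an added 2-fold minimum 781 called, 601 higher and 180 lower. Leaving out single arrays gave 3328 to 4381 called, 1969 to 2544 higher and 1326 to 1837 lower. The count of intervals within 0.5 log2 (11298) became 6882 and 4564 with the filters on low levels, 18100 over all clusters and 5016 within 0.3 log2, through the number of genes tested and the bound itself. The filter at the median level left 5 NF-kB genes and 7 hypoxia genes higher in place of 10 and 11, through fewer genes tested. ERBB2 ranged from 0.91 (quantile normalization) to 1.03 (median centring), with an adjusted p below 0.05 in limma in every setting run. Its main difference of 0.98 falls just short of the added 2-fold minimum. No called difference among the named genes changed sign. Apart from the stricter thresholds, 281 of 326 named genes besides ERBB2 kept their call and direction in every setting run. Single genes were not followed under the stricter thresholds (adjusted p below 0.01 or the 2-fold minimum), where fewer genes are called. The labels do not say whether replicate numbers pair the arrays, and with 3 arrays per line the values cannot settle it. Same-numbered WT-HER2 and Delta-HER2 deviations correlated at 0.302, −0.227 and −0.157, and 1 of 9 arrays correlated best with its own number. With the replicate number as a block 3456 genes were called and ERBB2 differed by 0.98 (adjusted p = 2.01e-04). The spread of 3 arrays per line limits all values.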

Other observations

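All cells had been grown with hydrocortisone until the final 16 hours, and a list of 21 genes known to be induced by glucocorticoids was added after the values were seen, so it carries no test of its own. Of these, 11 were lower with Delta-HER2 and 5 higher, with a median of −0.27 against −0.04 for all genes. Of all genes above background 12.4% were lower and 18% higher. TSC22D3, which encodes the glucocorticoid-induced leucine zipper, read 7.64, 7.45 and 7.68 with WT-HER2, 7.67, 7.39 and 7.40 in control and 5.45, 5.28 and 5.35 in Delta-HER2 cells (−2.23, SE 0.10). ZBTB16 (−1.94, SE 0.14) and MAOA (−2.29, SE 0.11) were lower too, and the receptor gene NR3C1 was lower by 0.48 (−0.48, SE 0.10). ANGPTL4, a lipase inhibitor gene that is also a hypoxia target, was higher by 1.67 (SE 0.14).

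Genes often used for normalization were not all level between the HER2 lines. Of 10 such genes 4 were higher and 2 lower, with the transferrin receptor gene TFRC at 1.87 (SE 0.11), HPRT1 at 1.35 (SE 0.16) and ACTB at 0.74, and B2M at −0.59. GAPDH had a difference of 0.12. The shares of all genes above background were 18% higher and 12.4% lower.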
